A study of Mus musculus with 14 samples.

Results

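The vitamin D receptor gene Vdr was followed together with Cyp24a1, the retinoid X receptor genes Rxra and Rxrb, the coactivator genes Ncoa1 and Ncoa2, the corepressor gene Ncor1 and the Mediator gene Med1. These 8 genes were taken by symbol from the 23420 gene rows of each count table, and all 8 were found in both. Polyadenylated RNA had been sequenced from 14 mouse libraries in 6 groups, 6 libraries from liver and 8 from cultured hepatic stellate cells, the mesenchymal cells that store vitamin A and make scar matrix when activated. The liver groups were 3 mice lacking p62 (p62KO) and 3 wild-type (WT) mice, and every one of them had received the carcinogen diethylnitrosamine (DEN) and a high-fat diet (HFD). The stellate cell groups, with 2 libraries each, were p62KO with calcipotriol, WT with calcipotriol, p62KO with vehicle and WT with vehicle. Calcipotriol is a synthetic agonist of the vitamin D receptor, and its dose and time of exposure, like the age of the mice, are not stated in the labels.

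All stellate cells, WT included, had been immortalized with the SV40 T antigen and grown in serum. The number of lines behind each genotype was not given, so that a difference between genotypes is a difference between the lines used. Nothing stated that replicates came from separate cultures or animals, and p-values then measure only the spread between these libraries, which may be technical. Totals ranged from 17506607 to 20040583 counts in liver and from 15207117 to 29079258 counts in stellate cells. Levels are given in CPM, read counts scaled to the library total. The deleted gene Sqstm1, which encodes p62, had 1.44 to 2.12 CPM in p62KO livers against 448 to 583 CPM in WT livers. It had 0.211 to 0.835 CPM in p62KO stellate cells against 316 to 340 CPM in WT stellate cells. The libraries thus matched their genotype labels, and this gene does not check the treatment labels.

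The vitamin D receptor is a ligand-activated transcription factor that binds DNA as a heterodimer with a retinoid X receptor. Without ligand it can hold corepressors such as NCOR1, and with ligand it recruits p160 coactivators and then the Mediator complex through MED1. Cyp24a1, the enzyme that breaks down the vitamin D hormone, is its classic target and closes a feedback loop. In liver the receptor is known to be scarce in hepatocytes and present in non-parenchymal cells, stellate cells among them. The series title places p62 in a complex with this receptor in stellate cells, and the comparisons ask how the receptor's own genes and its target behave without p62 and under the agonist.

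Vdr was at most at 0.78 CPM in the livers, where Cyp24a1 had no reads, and both were present in every stellate cell library. Rxra was present in both tissues, at 391 to 474 CPM in livers and 49.8 to 82.9 CPM in stellate cells. Cyp24a1 rose 8.21-fold with calcipotriol over both genotypes, and the fitted change was 8.18-fold in p62KO and 8.24-fold in WT stellate cells. Its level was nevertheless lower in p62KO than in WT stellate cells, to 0.376 of WT under calcipotriol. Ncoa2 was lower in p62KO stellate cells under both treatments, and under calcipotriol Ncoa1 was lower and Rxrb higher. Each of these 4 calls on Ncoa2, Ncoa1 and Rxrb was lost when any 1 of the 4 WT libraries was left out. Each was also lost when chromosome medians were removed. Both Cyp24a1 calls were likewise lost when any 1 of the 4 WT libraries was left out, and without p62KO calcipotriol replicate 2. In liver none of the 6 genes of this group that could be tested passed the threshold.

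The stellate cell libraries carried the label of their cell type only in part. Of 9 stellate cell markers, 2 or 3 averaged above 1 CPM in each stellate cell group. Pdgfrb averaged 116 to 175 CPM and Hand2 11.1 to 101 CPM over these groups. Lrat, the retinoid-storing enzyme, was listed at 0 in all 4 groups. All 8 fibroblast and myofibroblast markers were above 1 CPM, and the 8 hepatocyte markers summed to at most 2.58 CPM per library. Replicates agreed less in p62KO than in WT groups. The chi-square per degree of freedom between the 2 replicates was 190 in p62KO calcipotriol and 11.7 in WT calcipotriol cells, and it was 58 in p62KO vehicle and 1.66 in WT vehicle cells. Between livers it was 55.2 to 195 in p62KO and 25.1 to 34.6 in WT. The pairs with p62KO liver replicate 3 had the values 195 and 79.8, and without that library the calls over all genes numbered 3669 in place of 1020. In stellate cells the p62KO vehicle replicate 1 and the p62KO calcipotriol replicate 2 stood apart. The median log2 level of chromosome X genes relative to WT vehicle was -0.63 in p62KO calcipotriol replicate 2 and -0.14 in replicate 1, and that of chromosome 2 was -0.24 in p62KO vehicle replicate 1 and -0.03 in replicate 2. A fit without these 2 libraries has 1 library in each p62KO stellate cell group, takes its spread from the WT libraries alone and assumes that the p62KO libraries vary like them.

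Vdr lies on chromosome 15 (97854425 to 97910630, minus strand, GRCm38) and its transcripts were a matter of single reads in liver. The 3 p62KO livers had 16, 11 and 7 counts, which is 0.78, 0.529 and 0.404 CPM, and the 3 WT livers had 0, 1 and 2 counts, which is 0, 0.0566 and 0.111 CPM. Every p62KO liver was above every WT liver. Among the genes tested in liver 37.6% did not overlap between genotypes, in either direction. Over the group this was 34 against 3 counts, a depth-corrected ratio of 10.7 with a 95% counting interval of 3.37 to 54.5, which covers counting error only. The gene fell below the filter on low counts and so was not among the 12851 genes tested in liver. With the filter off, edgeR gave a log2 fold change of 3.23 ± 0.854 (SE) and a Benjamini-Hochberg adjusted p of 0.0587. DESeq2 gave 3.36 with an adjusted p of 0.0291. Vdr passed the filter in 4 of the 6 fits that left out 1 liver. Without p62KO replicate 3 it gave 3.43 with an adjusted p of 0.023, and without WT replicate 1, 2 or 3 it gave 2.67, 3.27 or 4.11 with 0.132, 0.123 or 0.119. In bulk liver, more cells of a type and more RNA per cell cannot be told apart.

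Markers of some other cell types were also higher in p62KO livers, where 7.94% of all genes tested were called. The 8 fibroblast markers summed to 637 to 1130 CPM in p62KO livers against 352 to 412 CPM in WT livers, and 5 of the 8 rose in the test. The 9 stellate cell markers summed to 151 to 291 CPM in p62KO livers against 111 to 138 CPM in WT livers, and 1 of 8 tested rose. The 6 cholangiocyte markers summed to 162 to 525 CPM in p62KO livers against 57.7 to 107 CPM in WT livers, with 2 rising, and none of these 3 lists had a member at 0. The cholangiocyte sum was mainly Spp1, which averaged 366 CPM in p62KO and 77.5 CPM in WT livers. The next highest of these markers, Sox9, averaged 12.3 and 7.28 CPM, and the list median log2 fold change was 2. Macrophage sums overlapped, at 790 to 963 CPM in p62KO livers and 325 to 1050 CPM in WT livers, with 2 of 7 tested rising, though Marco averaged 9.79 CPM in p62KO and 124 CPM in WT livers. Of 6 endothelial and 5 tested T and B cell markers 0 passed, and their sums overlapped, at 137 to 189 and 4.9 to 18.6 CPM in p62KO livers against 121 to 155 and 4.57 to 5.87 CPM in WT livers. The part of these cells in the Vdr counts was not tested.

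In stellate cells Vdr was well above its liver level in every library, though liver and stellate cells were scaled in separate tables and were not tested against each other. Calcipotriol-treated p62KO cells had 19.6 and 26 CPM and calcipotriol-treated WT cells 30.3 and 30.1 CPM. Vehicle-treated p62KO cells had 10.2 and 15.5 CPM and vehicle-treated WT cells 15.3 and 15.6 CPM. Both calcipotriol groups therefore lay above their vehicle groups with no overlap. In p62KO cells 40.4% of all genes tested did not overlap between calcipotriol and vehicle, in either direction, and the share in WT cells is not given. The p62KO groups lay lower on average, with overlap under vehicle and none under calcipotriol, where 64.9% of all genes tested did not overlap.

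The Vdr difference with calcipotriol was similar in size in both genotypes. Its log2 fold change was 0.83 ± 0.252 (SE; 95% interval 0.25 to 1.41) in p62KO cells, with an adjusted p of 0.361. In WT cells it was 0.97 ± 0.254 (interval 0.39 to 1.54), with an adjusted p of 1. Neither passed after adjustment over 12681 genes, nor did the mean of both genotypes (0.90 ± 0.179, adjusted p = 0.328), although Vdr ranked 32 among all genes by p there. That mean did pass under DESeq2 (0.90, adjusted p = 0.0103), without p62KO calcipotriol replicate 1 (adjusted p = 0.00872) and, with the spread of WT libraries alone, without both libraries that stood apart (0.66, adjusted p = 0.0174). The p62KO to WT difference of Vdr did not pass under calcipotriol (-0.40 ± 0.249, adjusted p = 0.261) or vehicle (-0.27 ± 0.255, adjusted p = 0.526). Under calcipotriol it was -0.64 with an adjusted p of 0.00399 without both libraries that stood apart (spread from WT libraries alone), and -0.86 with 0.0423 once chromosome medians were removed, while chromosome 15 as a whole had a median of 0.40.

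**Figure D1:**
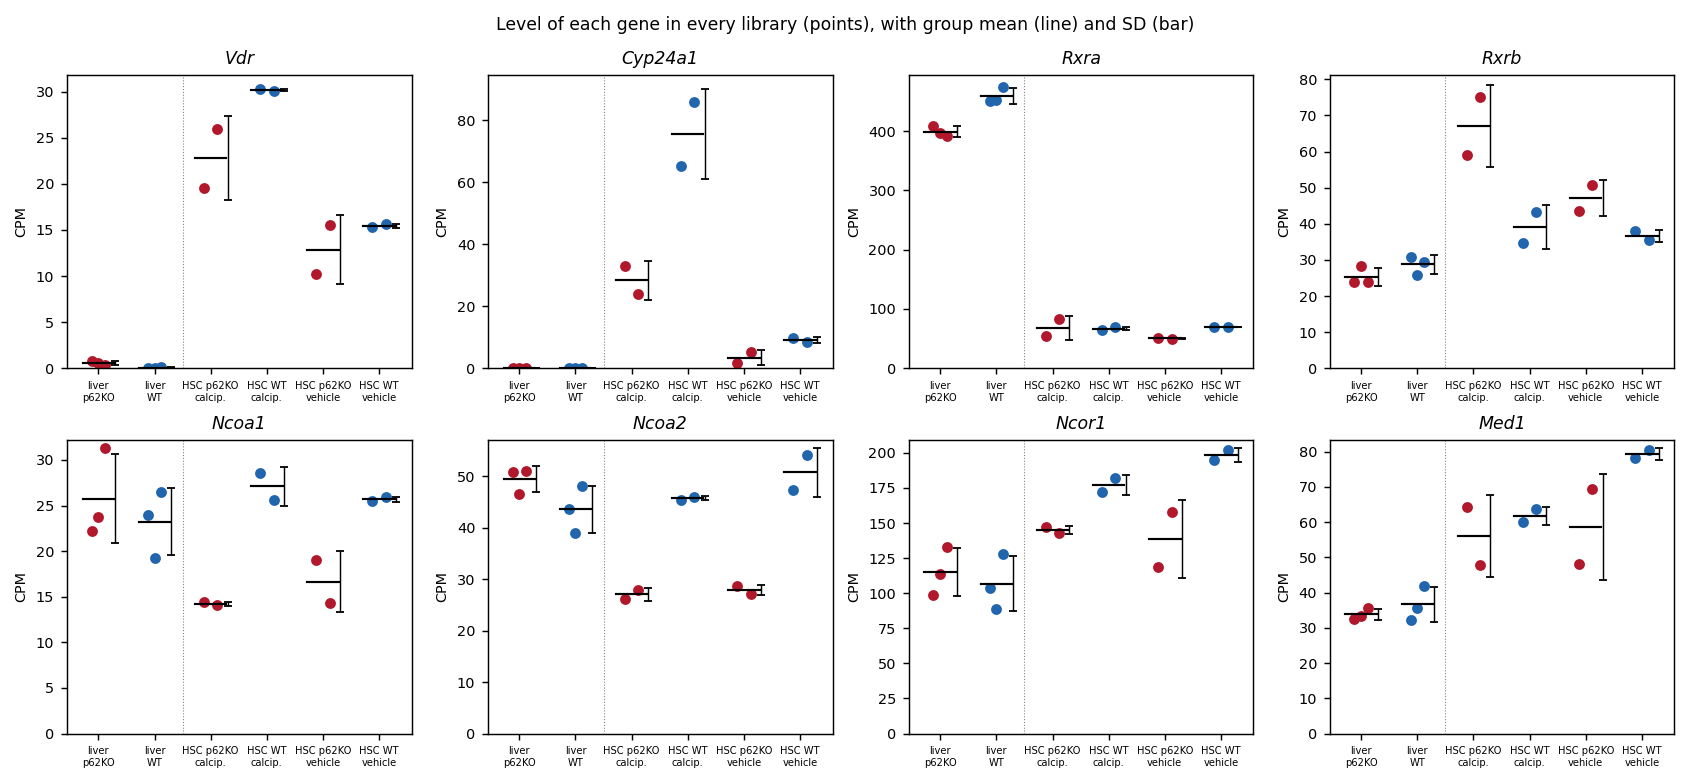
Level of each of the 8 genes (CPM, vertical axis from 0) in every library, with points for libraries, horizontal lines for group means and bars for SD; red is p62KO and blue is WT, and HSC stands for hepatic stellate cells. Vdr and Cyp24a1 sit near or at 0 in liver, Rxra is at 391 to 474 CPM there, and both calcipotriol groups of Cyp24a1 lie above their vehicle groups.

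A Vdr promoter window is shown because the receptor's own transcript was higher in each calcipotriol library than in the vehicle libraries of its genotype. The window lies inside the gene's span, which reaches 97910630. The bases before that upstream end of the gene were not examined. The 250 bases before the RefSeq start read as follows on the minus strand (chr15:97908297-97908546, GRCm38.p6), with capitals marking the only receptor hexamer found.
Vdr: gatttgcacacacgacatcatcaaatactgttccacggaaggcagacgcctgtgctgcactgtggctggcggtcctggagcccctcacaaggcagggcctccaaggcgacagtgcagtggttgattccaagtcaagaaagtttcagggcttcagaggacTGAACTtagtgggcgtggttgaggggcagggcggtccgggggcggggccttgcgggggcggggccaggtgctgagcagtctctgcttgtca
The hexamers searched on both strands were the consensus AGGTCA and its variants, namely GGGTCA with another start, AGTTCA with another centre, and GGTTCA with both. The match is AGTTCA on the opposite strand, 91 to 86 bases before the start, and 38.6% of 32851 promoter windows of this length hold at least 1 such hexamer. A direct repeat of hexamers with 3 bases between, the layout the receptor and RXR are known to bind, occurs in 0.0396% of windows and not in this one. The GC box GGGCGG, the Sp1 motif, occurs 3 times, starting 63, 52 and 36 bases before the start, and 8.47% of windows hold at least 3. Such letters describe the window and not a bound site.

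Cyp24a1 (chromosome 2, 170482708 to 170497145, minus strand) was not seen in liver. All 6 livers had 0 counts, which allows up to 0.0512 CPM over the p62KO livers and 0.0542 CPM over the WT livers, set at 3 counts per group. In stellate cells it was present in every library. Calcipotriol-treated p62KO cells had 32.9 and 23.9 CPM, and calcipotriol-treated WT cells had 65.4 and 86 CPM. Vehicle-treated p62KO cells had 1.83 and 5.12 CPM, and vehicle-treated WT cells had 9.85 and 8.51 CPM. The 4 groups did not overlap, and their order was WT calcipotriol, p62KO calcipotriol, WT vehicle and p62KO vehicle. Its exons share 83 bases with those of Pfdn4 on the opposite strand, and whether counting used the strand was not given.

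Over both genotypes Cyp24a1 rose with calcipotriol by 3.04 ± 0.298 on the log2 scale (SE; 95% interval 2.36 to 3.72), with an adjusted p of 0.0184 in edgeR's quasi-likelihood test. It was 1 of 8 genes of the group to pass, against 0.0237% of all genes tested, which is 3 of 12681. The other 2, named after their values were seen, were Rassf2, a Ras association domain gene, and Afap1l2, an actin filament associated protein gene. Rassf2 rose by 2.30 ± 0.172 (adjusted p = 0.00613) and Afap1l2 by 1.99 ± 0.178 (adjusted p = 0.0131). Rassf2 had 13.3 and 14.8 CPM in p62KO and 14.5 and 13.3 CPM in WT cells with calcipotriol, against 2.51 and 2.48 CPM in p62KO and 3.19 and 3.21 CPM in WT cells with vehicle. The Cyp24a1 call was lost when any of the 4 WT libraries was left out (adjusted p from 0.0767 to 0.118) or without p62KO calcipotriol replicate 2 (0.0908), while the log2 value stayed between 2.76 and 3.51 in those 5 and every other alternative run.

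Within a genotype the same gene showed the same size without passing. Its log2 fold change was 3.03 ± 0.427 (SE; interval 2.06 to 4.0) in p62KO cells, with an adjusted p of 0.303. In WT cells it was 3.04 ± 0.416 (interval 2.10 to 3.99), with an adjusted p of 0.242. In each genotype it had the rank 3 by p. The share of genes called was 0% in either genotype, with 0 of 8 genes of the group passing. At an unadjusted p under 0.05 the counts were 1714 of 12681 genes in p62KO cells and 301 in WT cells, and DESeq2 called 54 in p62KO and 16 in WT cells. Cyp24a1 passed under DESeq2 in p62KO cells (adjusted p = 1.37e-10) and in WT cells (2.64e-11). It passed with no filter on low counts in p62KO cells (0.00342) and in WT cells (0.00448). Fitted on the 2 WT groups alone, the WT response passed with 0.000408.

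The difference between the 2 responses, p62KO minus WT, was -0.01 ± 0.642 on the log2 scale for Cyp24a1, with a 95% interval of -1.48 to 1.45 and an adjusted p of 0.997. As a ratio of the p62KO to the WT response, that interval runs from 0.358 to 2.73, so these libraries do not show that the responses were equal. For Vdr the difference was -0.14 ± 0.356 (interval -0.95 to 0.67, adjusted p = 0.895). No gene of the 8 passed this interaction test, where 0% of all genes did. At an unadjusted p under 0.05 there were 677 genes, or 5.34%, with 0 of the 8 among them, and DESeq2 called 0. Rxra had the widest gap between responses, 0.50 ± 0.309 (adjusted p = 0.71), and without p62KO calcipotriol replicate 1 it was 0.78 with an adjusted p of 0.0201.

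**Figure D2:**
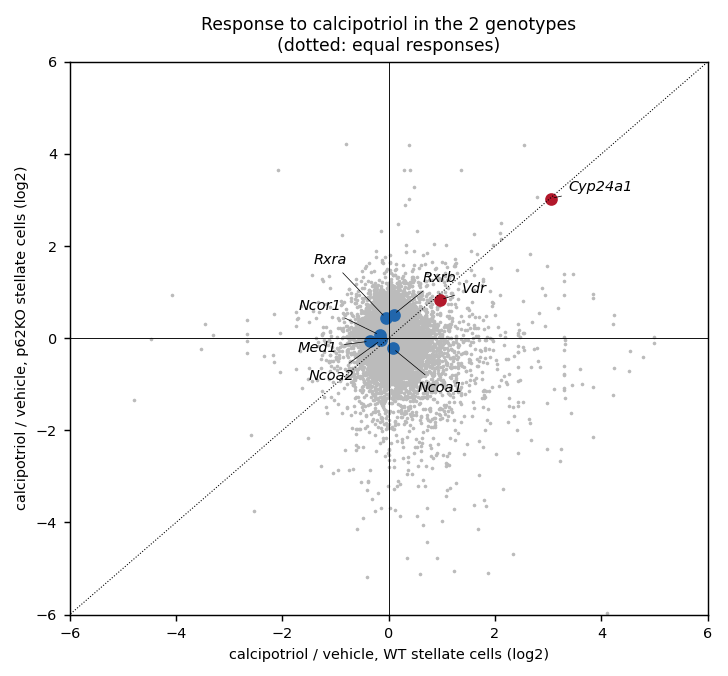
Calcipotriol over vehicle (log2 fold change) in WT stellate cells on the horizontal and in p62KO stellate cells on the vertical axis, with grey points for all genes tested, red for Vdr and Cyp24a1, blue for the other 6 genes and a dotted line for equal responses; 11 genes lie outside the axes. Cyp24a1 lies on the dotted line at 3.04 in WT and 3.03 in p62KO cells, and the 2 axes share no libraries.

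The p62KO level of Cyp24a1 was lower than the WT level on either treatment. Under calcipotriol it averaged 28.4 ± 6.35 CPM in p62KO and 75.7 ± 14.6 CPM in WT cells (SD, n = 2 each). The log2 fold change was -1.41 ± 0.385 (SE), with an adjusted p of 0.0366. Under vehicle it averaged 3.47 ± 2.33 CPM in p62KO and 9.18 ± 0.951 CPM in WT cells, and the change of -1.40 ± 0.422 had an adjusted p of 0.0633. The vehicle difference passed under DESeq2 (-1.41, adjusted p = 0.00514) and without both libraries that stood apart, where the value was -0.83 and the spread that of WT libraries alone (adjusted p = 0.0229). The call under calcipotriol was lost without either WT calcipotriol library (adjusted p = 0.122 and 0.191), without either WT vehicle library (0.0662 and 0.0631) or without p62KO calcipotriol replicate 2 (0.125). Genes of chromosome 2 had a median of -0.02 under calcipotriol and -0.11 under vehicle in the same comparisons.

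Set per length, the target stood at or above its receptor only in some groups. The ratio of Cyp24a1 to Vdr in CPM per kb of exon was 2.67 and 1.46 in calcipotriol-treated p62KO cells and 3.42 and 4.54 in calcipotriol-treated WT cells. It was 0.285 and 0.525 in vehicle-treated p62KO cells and 1.02 and 0.865 in vehicle-treated WT cells. The groups of the 2 genotypes did not overlap on either treatment, and this ratio was not tested.

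Rxra (chromosome 2, 27676440 to 27762957, plus strand) and Rxrb (chromosome 17, 34031812 to 34038399, plus strand) encode the partners that the receptor needs for DNA binding. Rxra was the most abundant of the 8 genes in liver, with 409, 396 and 391 CPM in p62KO livers against 450, 452 and 474 CPM in WT livers. The liver groups did not overlap, but the change of -0.20 ± 0.123 (SE; 95% interval -0.49 to 0.09) had an adjusted p of 0.288. It was the only tested gene of the 6 whose liver groups did not overlap, against 37.6% of all genes tested. Rxrb had 24, 28.2 and 23.9 CPM in p62KO livers against 30.9, 25.9 and 29.5 CPM in WT livers, which overlap, with a change of -0.18 ± 0.118 (adjusted p = 0.316).

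In stellate cells the partners were closer in level. Rxra had 53.8 and 82.9 CPM in p62KO and 64.8 and 69.2 CPM in WT cells with calcipotriol, and 50.7 and 49.8 CPM in p62KO and 69.6 and 70.1 CPM in WT cells with vehicle. Rxrb had 59.1 and 75.2 CPM in p62KO and 34.7 and 43.4 CPM in WT cells with calcipotriol, and 43.5 and 50.6 CPM in p62KO and 37.9 and 35.4 CPM in WT cells with vehicle. Rxrb was thus higher in every p62KO library than in its WT counterparts on the same treatment. Under calcipotriol it rose by 0.78 ± 0.207 (SE; 1.72-fold, adjusted p = 0.0335), and under vehicle the change was 0.36 ± 0.207 (adjusted p = 0.284). The call did not hold without either WT calcipotriol library (adjusted p = 0.243 and 0.126), either WT vehicle library (0.0857 and 0.086) or p62KO calcipotriol replicate 2 (0.0706). Nor did it hold in the fit on the 2 calcipotriol groups alone (adjusted p = 0.0966) or with chromosome medians removed (0.46, adjusted p = 0.107), where chromosome 17 had a median of 0.26. Rxra did not pass in either comparison, at 0.03 ± 0.218 under calcipotriol (adjusted p = 0.937) and -0.47 ± 0.22 under vehicle (adjusted p = 0.189). Under vehicle it gained a call in 4 of 15 alternative runs. Without both libraries that stood apart its value under calcipotriol was -0.33 with an adjusted p of 0.0148, from the spread of WT libraries alone.

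Per kb of exon, Rxra exceeded Rxrb 11.5 ± 1.15 times in p62KO and 11.7 ± 1.05 times in WT livers (SD, n = 3 each). In stellate cells with calcipotriol the ratio was 0.733 ± 0.0983 in p62KO and 1.26 ± 0.141 in WT cells (SD, n = 2 each). With vehicle it was 0.782 ± 0.0933 in p62KO and 1.39 ± 0.0778 in WT cells. Rxrb was the more abundant partner in all 4 p62KO stellate cell libraries and Rxra in all 4 WT ones. With the length of the longest transcript in place of all exons, the WT ratio was 0.927 under calcipotriol and 1.02 under vehicle, so the order in WT cells depends on the isoform.

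Ncoa1 (chromosome 12, 4247362 to 4477182, minus strand) and Ncoa2 (chromosome 1, 13139105 to 13374083, minus strand) encode p160 coactivators, which bring histone acetyltransferases to liganded nuclear receptors. Ncoa2 had 26.1 and 28 CPM in p62KO and 45.5 and 46 CPM in WT cells with calcipotriol, and 28.6 and 27.2 CPM in p62KO and 47.4 and 54.2 CPM in WT cells with vehicle. The 4 p62KO libraries all lay below the 4 WT libraries. Ncoa2 fell by 0.76 ± 0.175 on the log2 scale under calcipotriol (SE; adjusted p = 0.0224) and by 0.86 ± 0.176 under vehicle (adjusted p = 0.0182). It was the 1 gene of 8 that passed under vehicle, where 12.9% of all genes tested did.

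Ncoa1 had 14.4 and 14.1 CPM in p62KO and 28.6 and 25.6 CPM in WT cells with calcipotriol, and 19 and 14.3 CPM in p62KO and 25.5 and 25.9 CPM in WT cells with vehicle. Again no p62KO library reached a WT library. It fell by 0.93 ± 0.209 under calcipotriol (SE; adjusted p = 0.0211), while the change of -0.63 ± 0.21 under vehicle had an adjusted p of 0.0846. The vehicle change of Ncoa1 gained a call in 3 of 15 alternative runs. In all, 4 of 8 genes passed under calcipotriol, 1 higher and 3 lower, where 19.8% of all genes tested did, 10.3% higher and 9.53% lower. The medians of chromosomes 12 and 1 were -0.41 and -0.27 under calcipotriol and -0.17 and -0.12 under vehicle. With chromosome medians removed, Ncoa1 was at -0.52 (adjusted p = 0.0957) and Ncoa2 at -0.49 (adjusted p = 0.111) under calcipotriol, and Ncoa2 at -0.72 (adjusted p = 0.0503) under vehicle. In the fit on the 2 calcipotriol groups alone, the adjusted p was 0.0575 for Ncoa1 and 0.0818 for Ncoa2. The vehicle call of Ncoa2 was also lost without either WT vehicle library (0.13 and 0.221), either WT calcipotriol library (0.0551 and 0.0544) or p62KO vehicle replicate 1 (0.0535). Leaving out any 1 of the 4 WT libraries likewise ended both calls under calcipotriol, with adjusted p-values of 0.059 to 0.151 for Ncoa1 and 0.068 to 0.147 for Ncoa2, while the log2 values stayed from -1.02 to -0.84 and from -0.77 to -0.76.

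In liver the coactivators overlapped between genotypes. Ncoa1 had 22.2, 23.7 and 31.3 CPM in p62KO livers against 24, 19.2 and 26.5 CPM in WT livers, a change of 0.14 ± 0.175 (adjusted p = 0.591). Ncoa2 had 50.9, 46.5 and 51 CPM in p62KO livers against 43.6, 38.9 and 48.2 CPM in WT livers, a change of 0.18 ± 0.113 (adjusted p = 0.294). Of the 6 genes tested in liver, 0 passed in edgeR's test, against 7.94% of all genes tested. None of the 6 had an unadjusted p under 0.05, where 32.5% of all genes did, and under DESeq2 1 of the 8 genes passed, which was Vdr.

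Ncor1 (chromosome 11, 62316426 to 62458541, minus strand) encodes the nuclear receptor corepressor, and Med1 (chromosome 11, 98152154 to 98193293, minus strand) the Mediator subunit that contacts liganded receptors. They lie 12.1 Mb and 47.9 Mb from the deleted gene Sqstm1. Ncor1 had 147 and 143 CPM in p62KO and 172 and 182 CPM in WT cells with calcipotriol, and 119 and 158 CPM in p62KO and 195 and 202 CPM in WT cells with vehicle. Every p62KO library lay below every WT library of the same treatment. Its changes of -0.28 ± 0.187 under calcipotriol (SE; adjusted p = 0.292) and -0.52 ± 0.187 under vehicle (adjusted p = 0.104) did not pass. Ncor1 gained a call in 3 of 15 alternative runs under vehicle and in 1 of 15 under calcipotriol. Its exons share 82 bases with Pigl and 1 base with Ttc19 on the opposite strand.

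Med1 had 64.3 and 47.8 CPM in p62KO and 60 and 63.6 CPM in WT cells with calcipotriol, and 48.1 and 69.3 CPM in p62KO and 78.1 and 80.4 CPM in WT cells with vehicle. The groups overlapped under calcipotriol and did not under vehicle. Its changes were -0.14 ± 0.227 under calcipotriol (SE; adjusted p = 0.676) and -0.43 ± 0.228 under vehicle (adjusted p = 0.242). In liver Ncor1 averaged 115 ± 17.5 CPM in p62KO and 107 ± 19.6 CPM in WT livers, and Med1 33.8 ± 1.55 CPM in p62KO and 36.6 ± 4.92 CPM in WT livers (SD, n = 3 each). Both overlapped between genotypes, with adjusted p-values of 0.685 for Ncor1 and 0.523 for Med1.

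**Figure D3:**
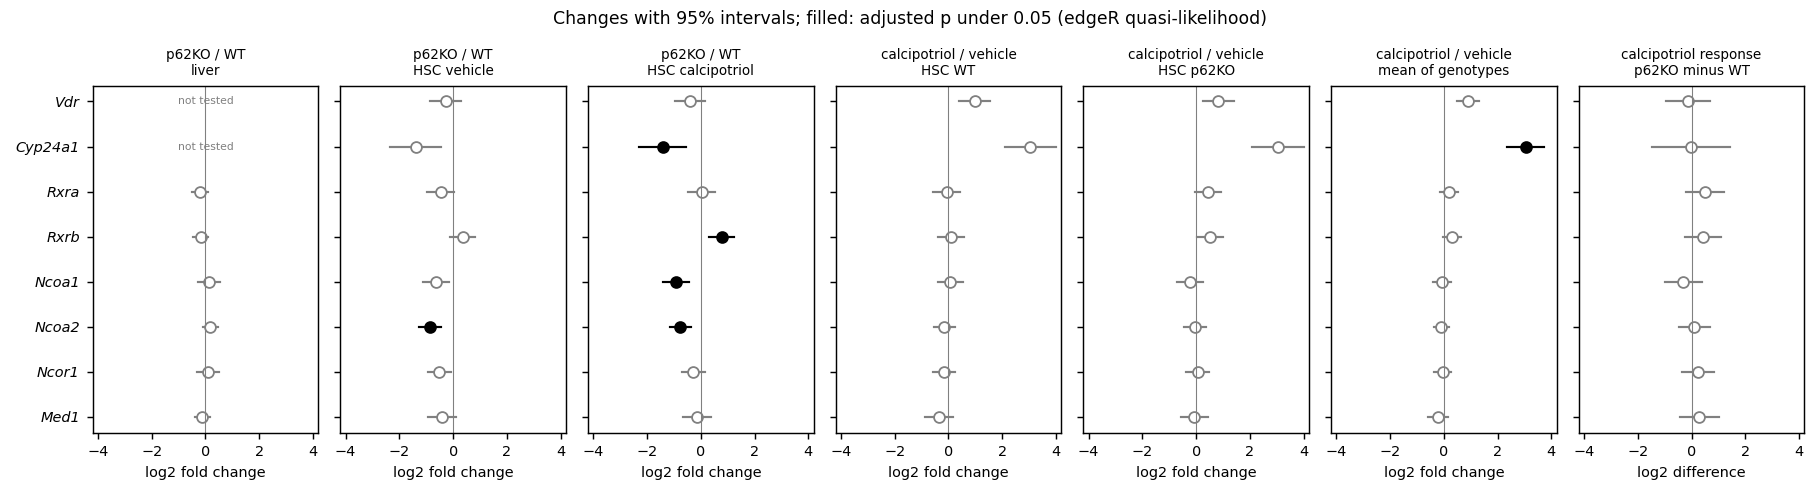
Log2 fold changes of the 8 genes (rows) in the 7 comparisons (panels), with points for edgeR estimates, lines for 95% intervals and filled points for an adjusted p under 0.05; the last panel is the difference between the responses. Under vehicle only Ncoa2 is filled, under calcipotriol Cyp24a1, Rxrb, Ncoa1 and Ncoa2 are, and for the mean of both genotypes only Cyp24a1 is.

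The cofactors and RXR genes did not pass in the calcipotriol comparisons in edgeR's fit of all 8 stellate cell libraries. Their largest values were 0.51 ± 0.206 (SE) for Rxrb and 0.44 ± 0.219 for Rxra in p62KO cells, with adjusted p-values of 0.361 and 0.367, and both came with no overlap between calcipotriol and vehicle libraries, as for 40.4% of all genes tested. In WT cells the log2 values of these 6 genes ran from -0.36 for Med1 to 0.09 for Rxrb. In the alternative runs Rxra and Rxrb each gained a call in 1 of 14 in p62KO cells. For the mean of both genotypes each gained one in 1 of 13, and Med1 did in 1 of 14 in WT cells. Under vehicle 7 of the 8 genes did not overlap between genotypes, where 68.8% of all genes tested did not. Under calcipotriol 6 of 8 did not, against 64.9%. The median log2 fold change of the 8 genes in p62KO over WT cells was -0.34 under calcipotriol and -0.50 under vehicle, beside -0.01 and 0.03 over all genes tested.

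Levels between genes were compared per kb of exon. In p62KO and WT livers Rxra led, at 73 and 84 CPM per kb, followed by Ncor1 at 9.01 and 8.35 and Rxrb at 6.39 and 7.24. Med1, Ncoa2 and Ncoa1 followed between 2.71 and 4.19 CPM per kb. Vdr came next, at 0.101 CPM per kb in p62KO and 0.00992 in WT livers, and Cyp24a1 was at 0. In calcipotriol-treated p62KO cells the order opened with Rxrb at 16.9 and Rxra at 12.5 CPM per kb, then Ncor1 at 11.3 and Cyp24a1 at 7.99. In calcipotriol-treated WT cells Cyp24a1 led at 21.3 CPM per kb, before Ncor1 at 13.8 and Rxra at 12.3. In vehicle-treated cells Cyp24a1 had the lowest mean of the 8, at 0.976 CPM per kb in p62KO and 2.58 in WT cells, though in WT it overlapped Vdr at 2.73. Neighbours in this order often overlapped in their libraries in p62KO stellate cells, for 4 of the 7 neighbouring pairs with calcipotriol, Rxrb and Rxra among them, and for 3 of 7 with vehicle. In WT cells 0 of 7 pairs overlapped with calcipotriol and 2 of 7 with vehicle. In livers Ncoa2 and Ncoa1 overlapped in both genotypes, while Ncor1 and Rxrb, and Vdr and Cyp24a1, overlapped in WT. With the longest transcript as length, Ncor1 at 16.1 CPM per kb stood above Rxra at 13.9 in calcipotriol-treated p62KO cells, Rxrb at 14.9 above Rxra at 13.7 in calcipotriol-treated WT cells, and Ncoa2 above Med1 in both liver groups, so that order depends on the isoforms.

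**Figure D4:**
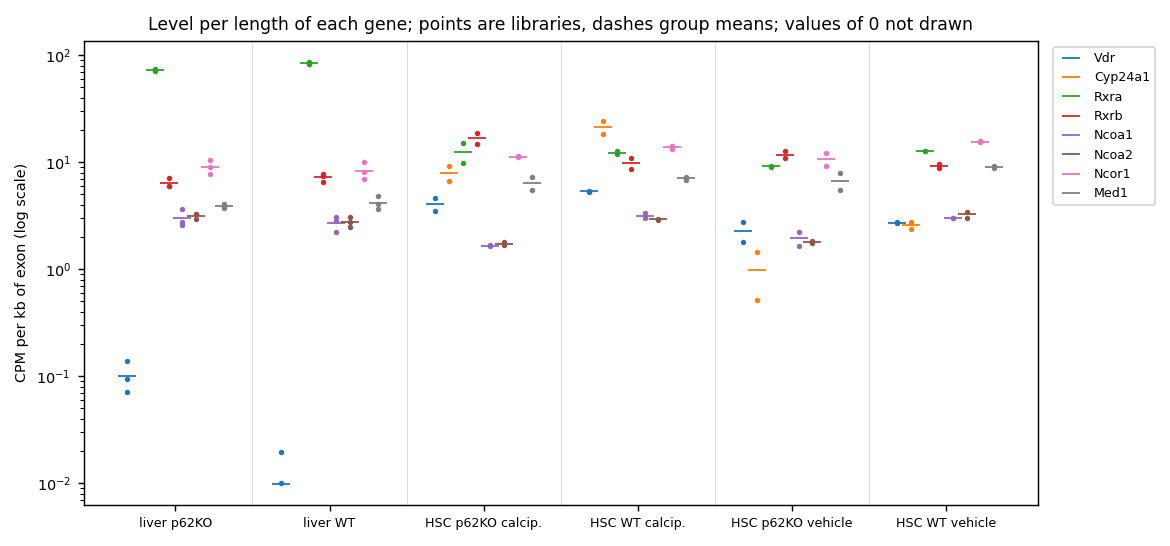
Level per length (CPM per kb of exon, log scale) of the 8 genes in the 6 groups, with points for libraries and dashes for group means; values of 0 are not drawn. Rxra stands alone at 73 to 84 on average in livers, and in stellate cells Cyp24a1 moves from the foot of the order with vehicle to 21.3 in calcipotriol-treated WT cells.

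The genes whose levels ran most like those of Vdr and Cyp24a1 over the 8 stellate cell libraries were found by Pearson correlation of log2 CPM among 10166 genes. For Vdr they were Apcdd1 (r = 0.961), Cyp24a1 (0.953), Tmem86a (0.943), Ckb (0.942) and Tgfbr2 (0.928). For Cyp24a1 they were Apcdd1 (0.958), Vdr (0.953), Gpc4 (0.946), Tmem86a (0.933) and Ckb (0.914). These values describe libraries that share treatment, line and depth, and carry no test. Apcdd1, a membrane inhibitor of Wnt signalling, had 46.9 and 64.1 CPM in p62KO and 61.7 and 67.3 CPM in WT cells with calcipotriol, against 14.1 and 21.5 CPM in p62KO and 31.3 and 30.9 CPM in WT cells with vehicle. In each genotype both calcipotriol libraries lay above both vehicle libraries, as those of Vdr and Cyp24a1 did. Apcdd1 was picked for its likeness to these genes, so its separation is no independent result.

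Around the receptor, 6 lists of known genes were read in the same fits, with no library left out and no chromosome medians removed. Whole chromosomes were shifted in p62KO stellate cells. Relative to WT vehicle, the median log2 level of chromosome 10 genes ran from -0.72 to -0.59 over the p62KO libraries. That of chromosome 4 genes ran from 0.28 to 0.53. The part of such shifts in the calls of list genes was not tested. Of 21 established vitamin D receptor targets other than Cyp24a1, 14 were tested in stellate cells. Under calcipotriol 2 of the 14 rose and 3 fell in p62KO relative to WT cells, and under vehicle 4 rose and 3 fell, with list medians of -0.40 and -0.11. Over all genes tested 19.8% were called under calcipotriol and 12.9% under vehicle. Gadd45a, a growth arrest gene, had 48 and 64.8 CPM in p62KO and 14.5 and 9.91 CPM in WT cells with calcipotriol, and rose by 2.21 ± 0.252 (SE; adjusted p = 0.00173). Spp1, which encodes osteopontin, had 189 and 191 CPM in p62KO and 498 and 836 CPM in WT cells, and fell by 1.81 ± 0.252 (adjusted p = 0.00385). Thbd, which encodes thrombomodulin, fell by 2.29 ± 0.4 (adjusted p = 0.00882). The others, named after their values were seen, were Cdkn1a, the p21 cell cycle inhibitor, which rose by 1.08 ± 0.289, and S100g, a calcium-binding protein gene, which fell by 2.49 ± 0.453. The list thus moved both ways between the genotypes.

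Under vehicle the same targets split again. Gadd45a rose by 2.36 ± 0.259 (SE; adjusted p = 0.00154) and Cdkn1a by 1.63 ± 0.294 (adjusted p = 0.0116), while Spp1 fell by 2.41 ± 0.257 (adjusted p = 0.00141). Spp1 had 191 and 171 CPM in p62KO and 963 and 958 CPM in WT cells. Also past the threshold, and named after their values were seen, were Klf4 (1.76 ± 0.425) and Nfkbia (1.69 ± 0.448), which rose, and Thbd (-1.80 ± 0.393) and S100g (-1.71 ± 0.453), which fell. None of the 14 passed with calcipotriol over vehicle in either genotype, and the list medians were -0.35 in p62KO and 0.35 in WT cells, beside -0.05 and 0.00 over all genes. The 8 fibroblast markers summed to 12300 to 18200 CPM in p62KO and 5090 to 5440 CPM in WT cells with calcipotriol, and to 10600 to 10800 CPM in p62KO and 4960 to 4970 CPM in WT cells with vehicle, with none at 0. Their part in the genotype differences of these lists was not tested.

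Among 17 other coactivators and chromatin partners, 4 fell and 0 rose in p62KO cells under each treatment, where 19.8% of all genes were called under calcipotriol and 12.9% under vehicle, in either direction. Under calcipotriol these were Ppargc1a, the metabolic coactivator (-4.24 ± 0.697), Baz1b, a chromatin remodeller subunit that binds the receptor (-0.85 ± 0.169), Ncoa4 (-0.77 ± 0.218) and, named after its value was seen, Smarca2 (-0.80 ± 0.228). Under vehicle they were Baz1b (-0.96 ± 0.17), Ncoa6 (-0.98 ± 0.216), Ppargc1a (-2.36 ± 0.569) and, named after its value was seen, the acetyltransferase gene Crebbp (-0.83 ± 0.225). Baz1b, the most abundant of them, had 331 and 300 CPM in p62KO and 548 and 588 CPM in WT cells with calcipotriol. With vehicle it had 316 and 341 CPM in p62KO and 637 and 638 CPM in WT cells, so every p62KO library was below every WT library. The list medians were -0.09 under calcipotriol and -0.38 under vehicle.

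Of 32 other Mediator subunits, 2 rose and 3 fell in p62KO cells under calcipotriol, and 0 rose and 3 fell under vehicle. These counts are no larger a share than over all genes tested, 19.8% under calcipotriol and 12.9% under vehicle. Med23 (-1.09 ± 0.179, SE), the kinase gene Cdk19 (-1.70 ± 0.308) and Med13l (-0.96 ± 0.177) fell under calcipotriol. The 2 that rose, named after their values were seen, were Med9 (0.97 ± 0.236) and Med10 (0.65 ± 0.175). Med13l (-1.23 ± 0.178), Med23 (-0.94 ± 0.179) and Med16 (-1.20 ± 0.293) fell under vehicle. Of 12 other corepressors, Hdac2, a histone deacetylase gene, fell under calcipotriol (-1.32 ± 0.298) and Lcor under vehicle (-1.48 ± 0.325). Of 13 tested receptors that also pair with RXR, Thrb, the thyroid hormone receptor beta gene, fell by 3.04 ± 0.365 under calcipotriol and by 1.73 ± 0.352 under vehicle. Of 7 tested genes of vitamin D metabolism and transport, Lrp2, the endocytic receptor megalin, rose under calcipotriol (1.03 ± 0.297, adjusted p = 0.0438) and 0 passed under vehicle. Neither these values nor those of the coactivators had chromosome medians removed. The part of chromosome-wide shifts in them was not tested.

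In liver 4 genes of these lists passed, where 7.94% of all genes tested were called. Those 1020 calls over all genes became 12, 22 or 3 without WT replicate 1, 2 or 3. They became 110, 9 or 3669 without p62KO replicate 1, 2 or 3. The 4 list genes were not followed in those fits. Spp1 was the 1 of 13 tested targets that rose, with 477, 478 and 144 CPM in p62KO livers against 93, 91.9 and 47.6 CPM in WT livers (2.24 ± 0.483, SE; adjusted p = 0.042). Spp1 is also a cholangiocyte marker, and it went the other way in stellate cells. Among the 16 listed receptors that pair with RXR, which also hold the RXR gene Rxrg, 2 fell. They were Nr1i3, the xenobiotic receptor CAR (-1.58 ± 0.194), and Nr1h4, the bile acid receptor FXR (-0.53 ± 0.121). Nr1i3 had 70.9, 89.8 and 118 CPM in p62KO livers against 258, 284 and 289 CPM in WT livers, with no overlap. Of 12 corepressors, Hr, the hairless gene whose product binds the vitamin D receptor, rose by 2.0 ± 0.286, with 3.7, 4.57 and 5.71 CPM in p62KO livers against 1.16, 1.42 and 0.892 CPM in WT livers. Of the 7 metabolism genes, 17 coactivators and 32 Mediator subunits, 0 passed, and their list medians were -0.46, 0.00 and 0.00. Those of the targets, the RXR-pairing receptors and the corepressors were 0.56, -0.03 and 0.31, beside 0.02 over all genes.

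**Figure D5:**
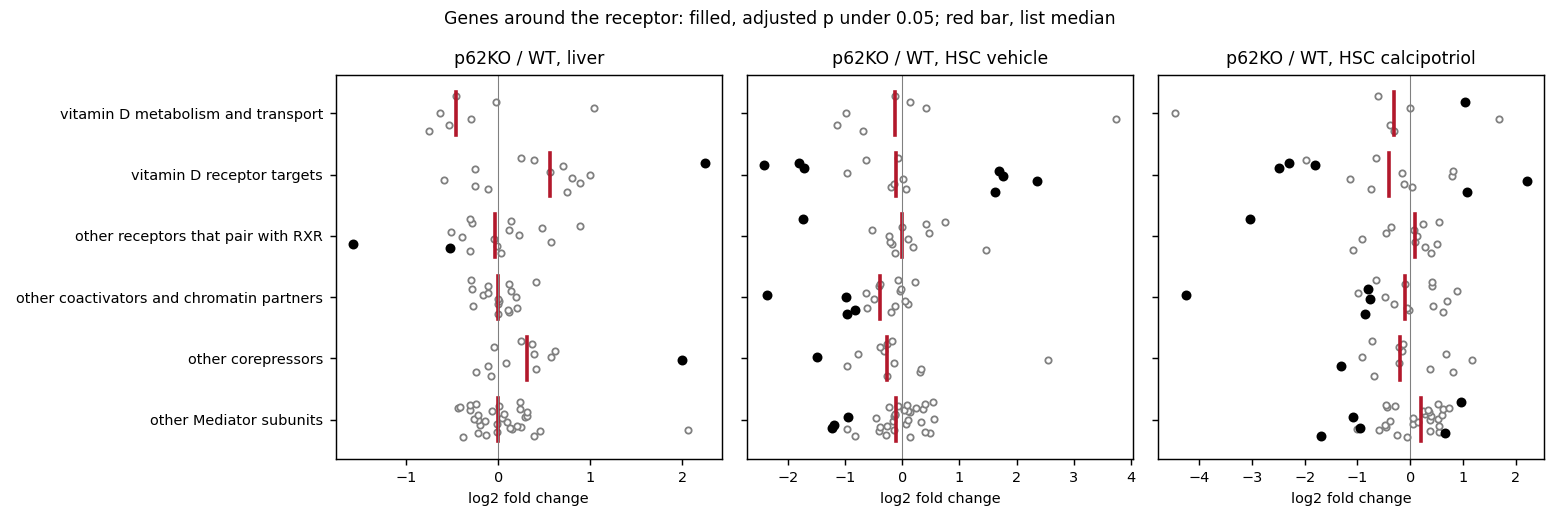
Log2 fold changes of p62KO over WT for the tested genes of the 6 lists (rows) in liver, vehicle-treated and calcipotriol-treated stellate cells (panels), with filled points for an adjusted p under 0.05 and red bars for list medians; each panel has its own horizontal axis. The targets hold filled points on both sides of 0 in both stellate cell panels, and the coactivators only on the lower side.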

How the data were processed

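The deposited tables held whole-number read counts per gene symbol, made by the authors from single-end reads of 75 nucleotides of a directional polyadenylated library, per the labels' protocols. The build was mm10, per the submitters' processing notes; the labels name no aligner, counting tool, strand setting or annotation. Counts were tested in R 4.3.3 with edgeR 4.0.16 (TMM scaling, filterByExpr, glmQLFit and glmQLFTest, two-sided, Benjamini-Hochberg adjustment over all genes tested, threshold 0.05), in 1 fit of 6 liver and 1 fit of 8 stellate cell libraries with no replicate block. The SE is the log2 fold change divided by the root of F. CPM used the TMM-scaled totals. Counting intervals are exact at 95%. Lengths and positions are those of GENCODE on GRCm38, and promoter windows those of RefSeq on GRCm38.p6, which held 6 of the 8 genes. Scripts were tested on simulated data.

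The genes, lists, tests and alternatives were chosen with earlier results of these data known. Beyond the 8 genes and Sqstm1, a list's 3 passing genes with the smallest p were named in each comparison, and the 5 genes most correlated with Vdr and with Cyp24a1 among those with at least 5 CPM in a group (prior count 2). Alternatives were RLE scaling, no filter, DESeq2 1.42.0, the replicate block, leaving out libraries, the compared groups alone, removed chromosome medians and another length.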

Additional observations from a re-analysis of the deposited data

Results flagged for a closer look

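Vdr differed in direction between liver and calcipotriol-treated stellate cells. In liver all 3 p62KO libraries were above all 3 WT libraries, with a log2 fold change of 3.23 in edgeR with no filter on low counts, from 34 against 3 counts. In calcipotriol-treated stellate cells both p62KO libraries were below both WT libraries, with a log2 fold change of -0.40. Of all genes tested, 37.6% did not overlap between genotypes in liver and 64.9% did not in calcipotriol-treated cells. In vehicle-treated cells the Vdr groups overlapped, with a log2 fold change of -0.27. The tissues were in separate tables, and the difference between them was not tested. The value under calcipotriol did not pass in edgeR's test (adjusted p = 0.261), and that in liver rests on few reads. Fibroblast, stellate cell and cholangiocyte marker sums were also higher in p62KO livers, the last being mainly Spp1, and their part was not tested.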

How the results depend on the processing

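Over 55 results of single genes, 737 alternative values were computed, of which 631 kept their direction and their side of the threshold, 35 lost and 41 gained a call, and 30 changed sign. In 29 of those 30 neither value was called, the exception being Rxra in p62KO over WT cells under calcipotriol. The cause of these moves was not tested. Where both libraries that stood apart are left out, each p62KO stellate cell group has 1 library and the spread is that of the WT libraries alone.

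The number of the 8 genes called moved as follows. In liver it was 0, and 1 under DESeq2. In p62KO over WT vehicle cells it was 1, and 2 with no filter, 2 under DESeq2, 6 without both libraries that stood apart, 2 with the fit on the compared groups and 0 once chromosome medians were removed. Under calcipotriol it was 4, and 7 without both libraries, 1 with the 2 groups and 2 with chromosome medians removed. For calcipotriol over vehicle it was 0 in p62KO cells, and 1 with no filter, under DESeq2 and without both libraries. In WT cells it was 0, and 1 with no filter, 1 under DESeq2, 2 without both libraries and 3 with the 2 groups. For the mean it was 1, and 2 under DESeq2 and without both libraries. Over all genes, liver had 1020 calls, and 2372 under DESeq2. Vehicle had 1634, and 5459 without both libraries and 1031 with chromosome medians removed. Calcipotriol had 2509, and 5606 without both, 1293 with the 2 groups and 1457 with chromosome medians removed. The p62KO response had 0, and 6 with no filter, 54 under DESeq2 and 5 without both. The WT response had 0, and 3, 16 and 283 in the same order, and 345 with the 2 groups. The mean had 3, and 27, 47 and 301 in that order.

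Leaving out 1 library in turn gave 0 to 1 of the 8 genes in liver and for the interaction, and 0 to 4 in vehicle, in calcipotriol, for the p62KO response and for the mean. Over all genes it gave 3 to 3669 calls in liver, 238 to 3635 in vehicle, 272 to 6052 in calcipotriol, 0 to 4559 for the p62KO response, 0 to 3469 for the mean and 0 to 2514 for the interaction.

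Log2 values that changed sign on leaving out 1 library ran, in liver, from -0.03 to 0.24 for Ncoa1 and -0.02 to 0.25 for Ncor1. For p62KO over WT they ran from -0.60 to 0.01 for Vdr in vehicle, and from -0.33 to 0.31 for Rxra and -0.37 to 0.04 for Med1 in calcipotriol. For the p62KO response they ran from -0.10 to 0.03 for Ncoa2, -0.13 to 0.29 for Ncor1 and -0.31 to 0.23 for Med1. For the WT response they ran from -0.05 to 0.25 for Rxrb and -0.00083 to 0.18 for Ncoa1. For the mean they ran from -0.15 to 0.04 for Ncoa1 and -0.14 to 0.07 for Ncor1. For the interaction they ran from -0.42 to 0.19 for Vdr, -0.58 to 0.91 for Cyp24a1 and -0.01 to 0.19 for Ncoa2. Without both libraries that stood apart, Vdr in vehicle was 0.01, Rxra -0.33 and Med1 0.04 in calcipotriol, Ncoa1 0.01 and Ncor1 -0.11 in the p62KO response, and Ncoa1 0.05 in the mean. The Cyp24a1 interaction was 0.0012 under DESeq2.

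Replicate numbers were not treated as pairs. Deviations of same-numbered livers from their group means correlated at 0.192, -0.191 and 0.142. Those of stellate cell groups correlated at -0.148 to 0.433, the highest between WT calcipotriol and p62KO vehicle. With 2 libraries a group these deviations mirror each other, and pairing or a shared batch was not tested. With the replicate block, liver had 639 calls and the mean response 6, and the Cyp24a1 interaction was 0.07. With the longest transcript as length, Rxra over Rxrb was 8.47 in p62KO and 8.58 in WT livers, 0.539 in p62KO and 0.927 in WT cells with calcipotriol, and 0.576 in p62KO and 1.02 in WT cells with vehicle.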
